A study of Mus musculus with 27 samples.

Results

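The oxygen-induced retinopathy (OIR) retina was followed from its hypoxic stage at p14 to its neovascular stage at p17. OIR p17 mice were compared directly with OIR p14 mice, which used 14 of the 27 mouse libraries (6 OIR p14 and 8 OIR p17). Each mouse is a separate animal. Genes with a mean of 10 or more normalized reads over these mice were tested, namely 19121 of the 40129 genes in the table. A normalized read is a read count divided by a scaling factor of its library, without correction for gene length, so levels are compared between mice and not between genes. Just inside the limit lay Gm26756 with a mean of 10.002 and just outside it Gm43387 with a mean of 9.999. Of the genes named below, Anpep, H2-Aa, Ms4a7, Tnf and Gm44240 had a mean below 10 at 1 stage and passed through the other. Counts of gene lists are out of the members that passed this limit.

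All mice were wild-type, with the strain given as C57BL/6 in the sample labels and as C57BL/6J in the study, and the tissue was whole retina. OIR pups spent p7 to p12 in hyperoxia, returned to room air and were examined at 14 or 17 days of age. Control pups (nOIR) of the same ages had stayed in room air throughout, with 6 nOIR p14 and 6 nOIR p17 mice. The nOIR p14 mouse S4 was left out, as the study did because of its lens RNA. Some libraries hold 1 retina and others both retinas of a mouse, after perfusion with PBS and storage in RNAlater. According to the study, each group came from fewer litters than mice, so some mice of a group shared a litter. Litters are not given for single mice, so litter was not in the fits and cannot be told apart from age.

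In this model hyperoxia stops vessel growth and removes capillaries in the central retina. After return to room air the avascular retina becomes hypoxic, hypoxia-inducible factors (HIF) accumulate and induce VEGF, and endothelial tip cells lead sprouts that break through into the vitreous as tufts. Pericytes are the mural cells that cover capillaries, and microglia and macrophages gather around the tufts.

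The 6 OIR p14 libraries held 24641221 to 33593428 reads (median 26105776) and the 8 OIR p17 libraries 17029536 to 32504170 (median 30538756). Their means were 27840956 (SD 3715388) and 28939365 (SD 5112031). The difference of means did not pass a two-sided exact permutation test (p = 0.696). All 24 rod photoreceptor genes examined were detected above the limit in these retinas. By Xist above 1000 normalized reads, 5 of 6 OIR p14 mice and 4 of 8 OIR p17 mice were female. Lens, skeletal muscle and myelin RNA varied between mice and was highest in single OIR p17 mice, whereas summed pigment epithelium genes had medians of 9878 at OIR p14 and 8848 at OIR p17, and cornea genes 720.6 and 704.8. Summed reads of the lens list ranged from 329 to 12238 (median 3869) at OIR p14 and from 670 to 53943 (median 13573) at OIR p17, with the top values in the p17 mice S2, S8 and S7. None of the 16 lens genes passed the test, although their median log2 fold change was 1.71, and the values in nOIR mice ranged from 183 to 29879. Summed skeletal muscle genes reached 6866 in p17 mouse S2 and 1467 in S7, against at most 618 at p14. Summed myelin genes, which mark the optic nerve in rodents, reached 20288 in p17 mouse S7, against at most 4971 at p14. The counts below were therefore repeated without S2, S7 and S8, the 3 mice with the highest Cryaa (a lens crystallin). The part of these tissues in the results was not tested. On the first principal component of the OIR mice (23% of the variance), p14 mice lay from -39.6 to -18.5. The p17 mice spread from -25.3 in S1, within the p14 range, to 54.2 in S7 and 94.2 in S8.

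**Figure D1:**
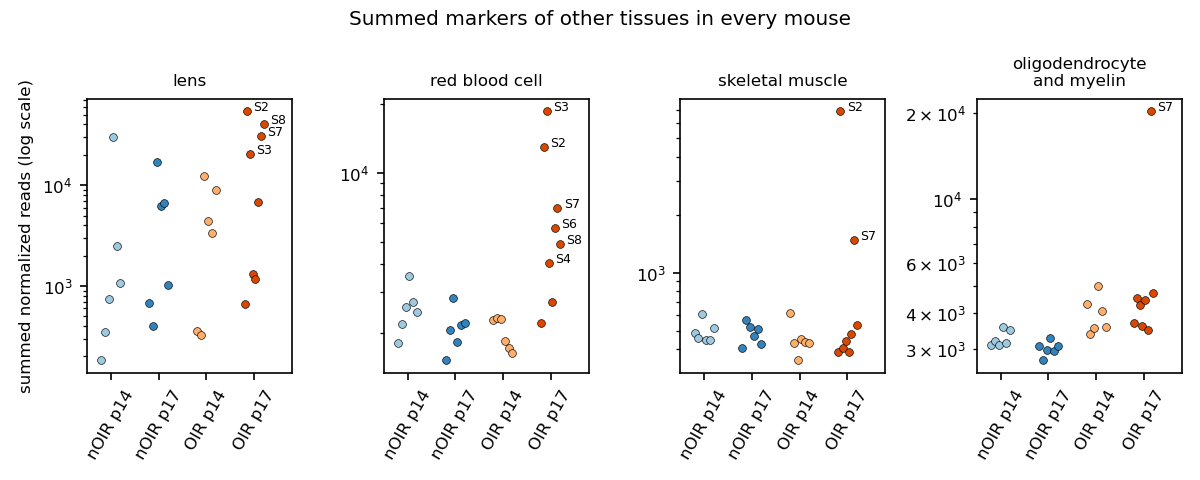
Summed normalized reads (log scale) of lens, red blood cell, skeletal muscle and myelin genes in every mouse of the 4 groups, with each point 1 mouse and OIR p17 mice labelled where they lie clearly above the highest OIR p14 mouse. Lens RNA peaks at 53943 in mouse S2 and red blood cell RNA at 18499 in mouse S3.

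Between p14 and p17, 885 genes rose and 249 fell in OIR retinas (limma, adjusted p under 0.05), which is 4.63% and 1.3% of the genes tested. Together these were 1134 genes (5.93%), of which 78.0% were higher at p17. A log2 fold change above 1 was reached by 423 (2.21%) and one below -1 by 61 (0.319%). A log2 fold change above 2 was found for 86 (0.45%) and one below -2 for 7 (0.0366%). The groups did not overlap in 377 genes that were higher (1.97%) and 99 that were lower (0.518%). The median log2 fold change was 0.97 among the genes that rose, -0.68 among those that fell and -0.027 over all genes tested. Without S2, S7 and S8 the counts were 400 higher and 85 lower, of which 394 and 77 were among those counted with all mice. In female mice alone (5 against 4) 337 genes were higher and 42 lower. Of the 101 genes that are named below with a change past the threshold, all kept their direction in female mice and 60 passed. The others there were Notch3, Anpep, Acta2, Pecam1, Abcb1a, Dll4, Adm, Vegfa, Pgf, Col1a1, Alas2, Cdk1, Ube2c, Mki67, Top2a, Cdc6, Ero1a, P4ha2, Slc16a3, Cx3cr1, Tnf, Il1a, Ccl3, Ccl4, Igf1, C4b, Tgfb1, Gnat1, Arr3, Guca1a, Cabp5, Trpm1, Isl1, Cirbp, 9630028B13Rik, Mesp1, Riiad1, Gm44240, Gem, Gm12371 and Slc40a1, with adjusted p from 0.0544 for Tgfb1 to 0.271 for Vegfa (limma). In bulk retina, a cell type that grew in number cannot be told apart from more RNA per cell.

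**Figure D2:**
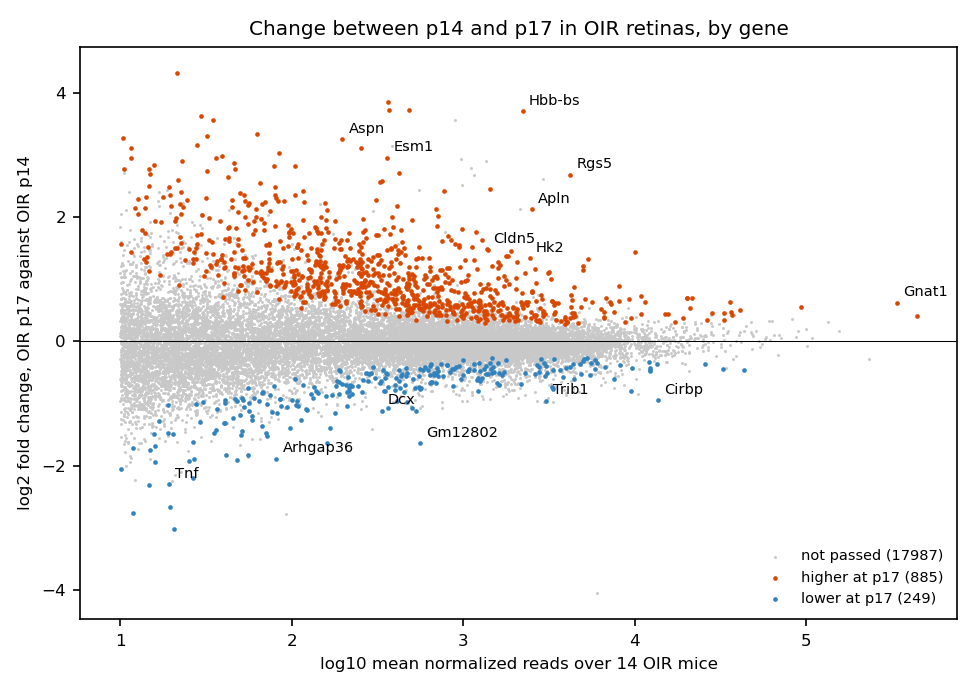
Log2 fold change of OIR p17 against OIR p14 (vertical) against the log10 mean of normalized reads over 14 OIR mice (horizontal), 1 point per gene, with 885 genes higher and 249 lower at p17 in colour. The higher genes reach log2 values near 4, while most lower genes stay above -2.

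The mice aged 3 days between the stages, so the change in nOIR retinas over the same days was measured in the same way. In nOIR mice 49 genes rose (0.256%) and 53 fell (0.277%). The change in OIR mice exceeded that in nOIR mice in 437 genes (2.29%) and lay below it in 45 (0.235%; limma, test of the difference between the changes). Among the 885 genes that rose in OIR retinas, 369 rose more than in nOIR retinas and 32 were also called higher there. Among the 249 that fell, 26 fell more than in nOIR retinas and 17 were also called lower there. The genes that rose had a median log2 fold change of -0.014 in nOIR mice, and those that fell had -0.18.

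**Figure D3:**
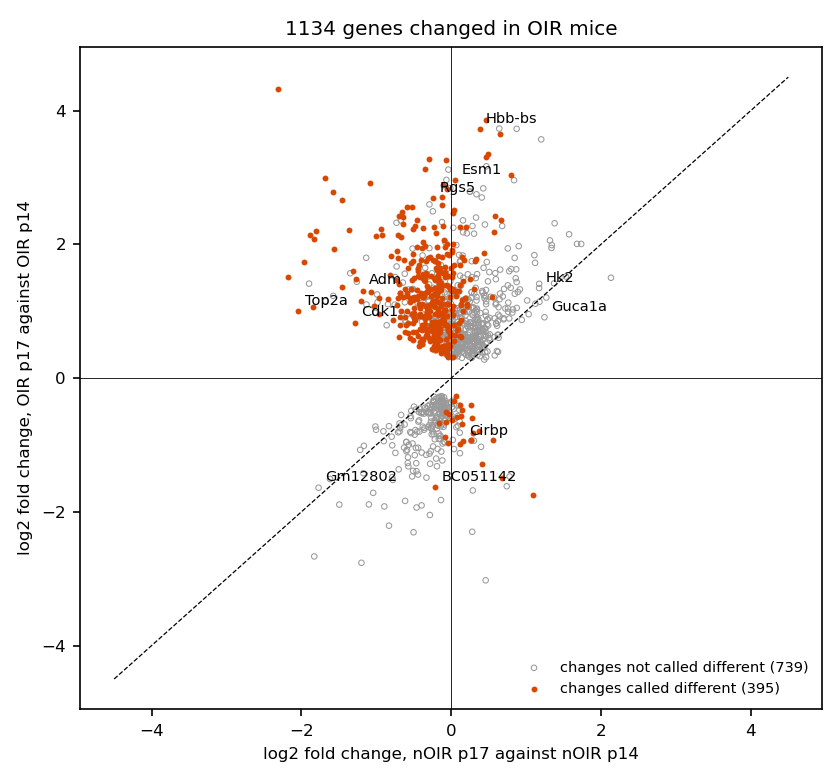
Log2 fold change from p14 to p17 in OIR mice (vertical) and nOIR mice (horizontal) for the 1134 genes changed in OIR mice, with the dashed line marking equal changes and filled points the 395 genes whose changes were called different. Most filled points lie above the line near 0 on the horizontal axis, as does Rgs5, whereas Hk2 and Gm12802 lie near the line.

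Pericyte genes rose together. Of 14 genes 12 rose and none fell, with a median log2 fold change of 2.08 against -0.21 in nOIR mice, and the change exceeded that in nOIR mice in 11. Rgs5, a regulator of G-protein signalling that marks pericytes, had 721 to 1530 normalized reads (median 997) at OIR p14 and 5096 to 8296 (median 6235) at OIR p17. Each p17 mouse stood well above each p14 mouse. Its log2 fold change was 2.69 ± 0.16 (SE; limma, adjusted p = 1.74e-07), and the nOIR medians were 2330 at p14 and 1868 at p17. By medians, and without a test, OIR mice were below nOIR mice at p14 and above them at p17.

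Kcnj8 and Abcc9 encode the pore and the regulatory subunit of the ATP-sensitive potassium channel of mural cells. Kcnj8 went from 48.3 to 135 normalized reads (median 81.2) to 378 to 735 (median 517). Abcc9 went from 64.4 to 132 (median 98.6) to 473 to 1105 (median 607). Neither gene had overlapping groups, and the log2 fold changes were 2.59 ± 0.22 and 2.71 ± 0.19 (limma, adjusted p = 3.5e-06 and 4.34e-07). Their nOIR medians lay between these stages, with 272 and 253 for Kcnj8 and 266 and 254 for Abcc9 at p14 and p17.

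Higd1b, a further pericyte marker, had the largest log2 fold change of the list, 3.12 ± 0.26 (limma, adjusted p = 3.4e-06). It stood at 21.2 to 68.3 normalized reads (median 46.6) at OIR p14 and at 246 to 667 (median 364) at OIR p17. Ednra, the endothelin A receptor, increased from 48.1 to 124 (median 82.4) to 373 to 667 (median 506), by 2.56 ± 0.19 (adjusted p = 1.03e-06). For both, the lowest p17 mouse lay above the highest p14 mouse. Cd248 (endosialin, a surface protein of growing mural cells and fibroblasts) changed by 2.43 ± 0.17 (limma, adjusted p = 4.34e-07). It moved from 170 to 285 (median 202) to 730 to 1454 (median 1232), while the nOIR medians were 147 and 86.8. Pdgfrb, the receptor that recruits pericytes to vessels, and Cspg4 (NG2 proteoglycan) rose by 1.64 ± 0.20 and 1.80 ± 0.29, again with groups apart (limma, adjusted p = 7.38e-05 and 0.00113). Notch3, a Notch receptor of mural cells, rose by 1.72 ± 0.33 with overlapping groups (adjusted p = 0.00465). Anpep (aminopeptidase N) had few reads, at most 15.1 at p14 and 48.5 at p17, and its rise of 2.36 ± 0.54 (limma, adjusted p = 0.0151) had an adjusted p of 0.13 without S2, S7 and S8. Over the pericyte list, 11 genes were called higher without these 3 mice.

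The contractile apparatus of smooth muscle rose in part. Of 14 genes 7 rose and none fell (median 0.69), and all 7 rose more than in nOIR mice. Des (desmin) went from 64.5 to 125 normalized reads (median 90.6) to 227 to 714 (median 458), a change of 2.28 ± 0.22 (limma, adjusted p = 1.04e-05). All p17 mice exceeded all p14 mice. Acta2 (smooth muscle actin) had 603 to 1177 at OIR p14 and 1143 to 3174 at OIR p17, and the groups touched at their edges. It rose by 1.23 ± 0.22 and Myl9 (myosin light chain) by 1.53 ± 0.19 (limma, adjusted p = 0.00214 and 0.000102). Acta2 medians in OIR mice, 919 and 2246, both lay above those in nOIR mice, 224 and 162. The list had 4 calls without S2, S7 and S8.

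Outside the lists, genes with the largest or firmest rise included Aspn (asporin, a small proteoglycan of the matrix). It had 11.5 to 55.8 normalized reads (median 33.5) at OIR p14 and 229 to 477 (median 300) at OIR p17, and its log2 fold change was 3.26 ± 0.29 (limma, adjusted p = 6.84e-06). Ggt5, a gamma-glutamyltransferase that acts on leukotrienes, rose by 3.04 ± 0.39, Slc38a11, an amino acid transporter, by 3.34 ± 0.36, Rasl12, a Ras-like GTPase, by 1.80 ± 0.14, and Mxra8, a cell adhesion protein, by 1.55 ± 0.13. Their adjusted p ranged from 1.03e-06 for Rasl12 to 0.000161 for Ggt5 by limma. No p14 mouse reached the lowest p17 mouse in any of these genes, and each rose more than in nOIR mice.

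**Figure D4:**
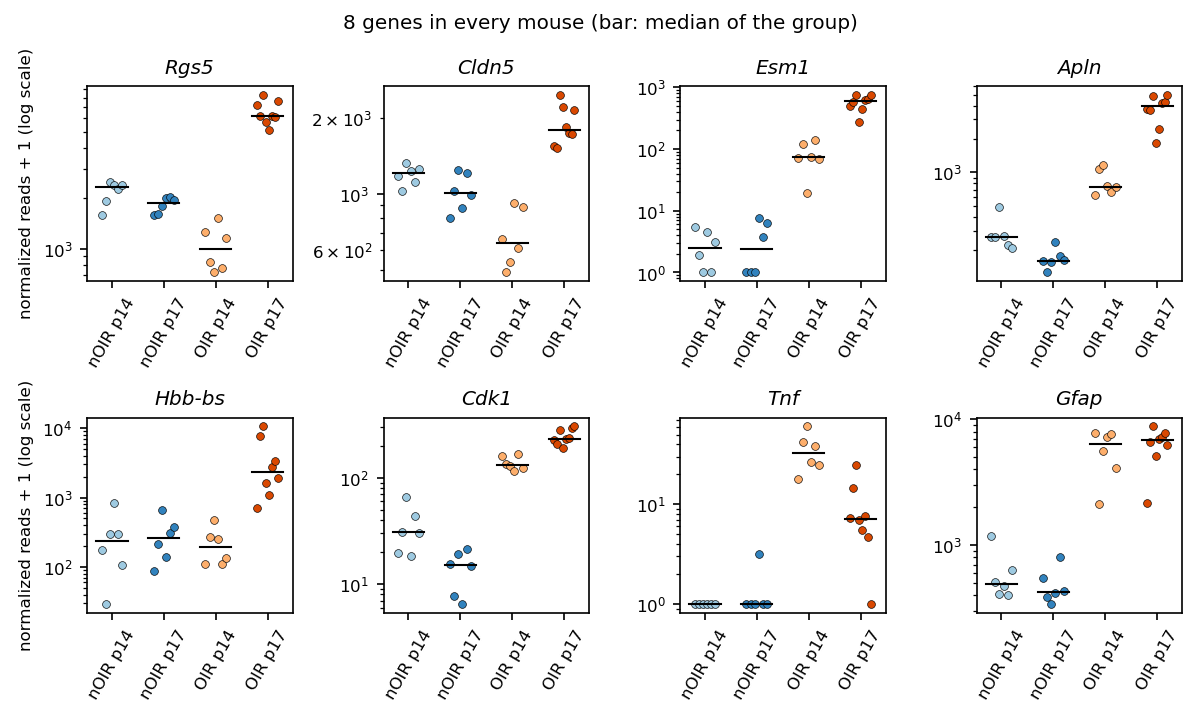
Normalized reads plus 1 (log scale) of 8 genes in every mouse, with 1 point per mouse and a bar at the median of each of the 4 groups. Rgs5 and Cldn5 lie lowest in OIR p14 mice and highest in OIR p17 mice, Esm1, Apln and Cdk1 are above nOIR mice at p14 and higher again at p17, Tnf is lower at p17, and Gfap spans the same range at both ages.

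Endothelial identity genes rose nearly throughout. Of 25 genes 23 rose and none fell, the groups did not overlap in 18, and the median log2 fold change was 1.15 against -0.12 in nOIR mice. The rise exceeded that in nOIR mice for 17 genes, and 19 genes were called higher without S2, S7 and S8. Cldn5, the tight junction claudin of the blood-retina barrier, had 487 to 920 normalized reads (median 635) at OIR p14 and 1516 to 2461 (median 1788) at OIR p17. No p14 mouse reached the p17 range, and the change was 1.49 ± 0.16 (limma, adjusted p = 2.18e-05). The nOIR medians, 1203 and 1009, lay between the stages.

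Emcn (endomucin, a sialomucin of capillaries and veins) moved from 72.5 to 178 normalized reads (median 157) to 409 to 710 (median 539), by 2.01 ± 0.19 (limma, adjusted p = 1.04e-05). Tie1, an orphan receptor of the angiopoietin pathway, moved from 238 to 611 (median 376) to 1064 to 1266 (median 1196), by 1.63 ± 0.17 (adjusted p = 2.02e-05). The p17 mice were close together in Tie1 and apart from the p14 mice in both genes. Cd34, a sialomucin of tip cells and progenitors, and Esam, an endothelial adhesion molecule, rose by 1.38 ± 0.13 and 1.22 ± 0.12 (limma, adjusted p = 9.7e-06 and 1.08e-05). Pecam1 (CD31) rose less, by 0.72 ± 0.12, and Cdh5 (VE-cadherin) by 1.46 ± 0.27 with overlapping groups, since 1 p14 mouse reached 296 (limma, adjusted p = 0.00118 and 0.0034). In Pecam1 the median of OIR p14 mice, 766, was already above the nOIR medians of 546 and 496.

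Growth factors and receptors of the VEGF and angiopoietin pathways moved unevenly. Of 13 genes 8 rose and none fell (median 0.54), and 4 were called higher without S2, S7 and S8. Vegfa, the growth factor that drives sprouting, had 4151 to 8754 normalized reads (median 5914) at OIR p14 and 6540 to 11093 (median 9998) at OIR p17. The groups overlapped, and the log2 fold change was 0.65 ± 0.16 (limma, adjusted p = 0.0212). The rise was larger than in nOIR mice by 0.83 ± 0.18 (adjusted p = 0.00966), but it lost its call without p14 mouse S6 (adjusted p = 0.0604), without p14 mouse S5 (0.052), without S2, S7 and S8 of p17 (0.159), in female mice alone (0.271), and with Xist (0.062) or Cryaa (0.0813) as a covariate. Kdr, the main VEGF receptor, which retinal neurons transcribe too, had 4990 to 8348 normalized reads (median 6323) at p14 and 3944 to 7158 (median 5615) at p17. Its change of -0.23 ± 0.15 did not pass (limma, adjusted p = 0.454). Flt1, the decoy VEGF receptor, rose by 0.54 ± 0.10 with groups apart (adjusted p = 0.00265), and Pgf (placental growth factor), a ligand of Flt1, by 1.29 ± 0.28 with overlap (limma, adjusted p = 0.00903, and 0.0812 without S2, S7 and S8).

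Tip cell genes rose in 14 of 18 cases with none lower (median 1.13), and the change exceeded that in nOIR mice in 13. Esm1 (endocan, a proteoglycan secreted by tip cells) was nearly silent in nOIR retinas, with medians of 1.5 and 1.39 normalized reads. It had 18.1 to 140 normalized reads (median 72.5) at OIR p14 and 278 to 753 (median 597) at OIR p17, a change of 2.96 ± 0.35 (limma, adjusted p = 7.34e-05). The groups did not overlap. Apln (apelin), a peptide ligand made by tip cells, went from 631 to 1175 (median 745) to 1841 to 4991 (median 3981), by 2.14 ± 0.22 (limma, adjusted p = 1.81e-05). Angpt2, the angiopoietin that loosens contacts between endothelium and pericytes, went from 411 to 666 (median 472) to 1039 to 2289 (median 1602), by 1.77 ± 0.16 (adjusted p = 8.34e-06). Both ligands were separated between the stages, and their nOIR medians were at most 263. Adm (adrenomedullin) rose by 1.31 ± 0.23 and Dll4, the Notch ligand of tip cells, by 1.10 ± 0.19 (limma, adjusted p = 0.00193 and 0.00199), with overlap only in Dll4. The tip cell list had 10 calls without S2, S7 and S8.

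Of 18 genes of the blood-retina barrier 6 rose and none fell (median 0.48), and 2 were called higher without S2, S7 and S8. Abcb1a, the drug efflux pump P-glycoprotein, had 21.5 to 92.2 normalized reads (median 76.8) at OIR p14 and 104 to 243 (median 166) at OIR p17. The groups were apart, with a change of 1.39 ± 0.30 (limma, adjusted p = 0.00976). Its medians in nOIR mice were 95.3 and 197, and the 2 changes were not called different (adjusted p = 0.544).

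Matrix genes rose in part. Basement membrane genes rose in 9 of 18 cases (median 0.74), collagens of other types in 4 of 14 (median 0.32), matrix glycoproteins and proteoglycans in 7 of 21 (median 0.48), and matrix enzymes and their inhibitors in 8 of 23 (median 0.39), with none lower in these lists. In the same order, 5, 2, 4 and 5 genes were called higher without S2, S7 and S8. Col4a1, the collagen IV chain of vascular basement membranes, was at 3060 to 8995 normalized reads (median 4565) at OIR p14 and at 7585 to 16981 (median 13881) at OIR p17. Apart from p17 mouse S4, the lowest of its group, all p17 mice exceeded the p14 mice, and the change was 1.44 ± 0.22 (limma, adjusted p = 0.000714). Nid1 (nidogen, a linker of laminin and collagen IV) rose by 1.46 ± 0.21 (adjusted p = 0.000415). Bgn (biglycan) went from 102 to 380 (median 277) to 779 to 1182 (median 1088), by 2.14 ± 0.22 (limma, adjusted p = 2.29e-05), with nOIR medians of 184 and 92.3. Here every p17 mouse stood above every p14 mouse.

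Col3a1 and Col1a1, chains of the fibrillar collagens III and I, rose by 2.03 ± 0.28 and 1.74 ± 0.40 (limma, adjusted p = 0.00034 and 0.0156). The groups overlapped in Col1a1 alone, where p17 mice ranged from 173 to 1165 normalized reads, and its adjusted p was 0.108 without S2, S7 and S8. Serpinh1, the collagen chaperone, had 1198 to 1962 at p14 and 2254 to 5127 at p17 and rose by 1.18 ± 0.19 (adjusted p = 0.000945). Loxl3, a lysyl oxidase that crosslinks collagen, and Mmp14, a membrane-bound matrix metalloproteinase, rose by 1.21 ± 0.15 and 0.66 ± 0.10 (limma, adjusted p = 0.000131 and 0.000543). These 3 genes had groups apart and rose more than in nOIR mice.

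The 4 globin genes had the largest log2 rises among changed genes with a mean of 50 or more over the OIR mice, Hba-a1 with overlapping groups and the others with groups apart. Of 6 red blood cell genes 5 rose (median 3.72), and 5 were called higher without S2, S7 and S8. Hbb-bs, a beta-globin, had 109 to 470 normalized reads (median 192) at OIR p14 and 714 to 10593 (median 2339) at OIR p17, by 3.72 ± 0.53 (limma, adjusted p = 0.000415). The p17 mice were widely spread but did not overlap with the p14 mice. Hba-a2, Hba-a1 and Hbb-bt moved by 3.73 ± 0.55, 3.73 ± 0.60 and 3.86 ± 0.59 (limma, adjusted p = 0.000543, 0.00107 and 0.000688). The globin pairs are near-identical copies, so reads may be shared between them. Alas2, the first enzyme of erythroid heme synthesis, rose by 1.64 ± 0.33 (adjusted p = 0.00552). The summed list reached 18499 in p17 mouse S3 and 12938 in S2, and was 2200 in S1, which is below the p14 maximum of 2331. How far the perfusion cleared blood from each eye was not measured.

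Genes of mitosis rose in 9 of 33 cases with none lower. The median log2 fold change was 0.57 in OIR mice and -0.43 in nOIR mice, where 3 genes fell. Cdk1, the kinase that drives entry into mitosis, had 114 to 165 normalized reads (median 131) at OIR p14 and 191 to 302 (median 231) at OIR p17. No p14 mouse reached the p17 range, and the change was 0.83 ± 0.15 (limma, adjusted p = 0.00199). In nOIR mice its medians were 29.7 and 14.1, and the difference between the changes was 2.11 ± 0.39 (adjusted p = 0.00148). Ube2c, the ubiquitin-conjugating enzyme of mitotic exit, went from 61.8 to 95.2 (median 69) to 96.3 to 266 (median 158), by 1.15 ± 0.22 (limma, adjusted p = 0.00331). Its lowest p17 mouse lay just above its highest p14 mouse. Top2a, the topoisomerase that untangles chromosomes, rose by 1.00 ± 0.19 with overlap (adjusted p = 0.00478, and 0.0504 without S2, S7 and S8).

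Mki67 (Ki-67), the standard marker of dividing cells, had 33.5 to 168 normalized reads (median 86.8) at p14 and 106 to 286 (median 179) at p17. Its change of 1.23 ± 0.31 passed (limma, adjusted p = 0.0247) but did not pass without p14 mouse S3 (0.0663), p14 mouse S5 (0.0559), p17 mouse S6 (0.0503) or the 3 mice S2, S7 and S8 (0.127), with Xist as a covariate (0.0614), in female mice alone (0.13) or with all 4 groups in the fit (0.252). In that 4-group fit Top2a and Cdc6 did not pass either (limma, adjusted p = 0.154 and 0.0965). Of 29 DNA replication genes 4 were higher and 2 lower (median 0.12), while 1 was higher and none lower without S2, S7 and S8 and none in female mice (limma). Cdc6, the loader of the replicative helicase, rose by 1.51 ± 0.35 (adjusted p = 0.0156) at low levels, from a median of 10.4 to one of 31, and its adjusted p was 0.107 without S2, S7 and S8. Mitosis calls numbered 4 without these mice and 2 in female mice alone, with a list median of 0.55 in both.

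The promoters of Cdk1 and Ube2c are shown because mitotic genes share the element TTTGAA, known as the cell cycle homology region. RefSeq (GRCm38.p6) gives 300 bases around each start, and 28 of the 33 mitosis genes matched. The letters TTTGAA, searched on both strands (TTCAAA on the other), occurred in 21 of these 28 genes, namely in 7 of 8 that rose and 14 of the other 20. They occurred in 20.2% of all genes with a promoter and in 14.5% of those tested here. CCAAT, also searched on both strands, occurred in 22 of the 28 and in 41.1% of all. Capitals mark TTTGAA or its reverse complement. The Cdk1 promoter is chr10:69352863-69353162 on the minus strand and the Ube2c promoter is chr2:164769679-164769978 on the plus strand, both printed 5′ to 3′ along the gene.
Cdk1: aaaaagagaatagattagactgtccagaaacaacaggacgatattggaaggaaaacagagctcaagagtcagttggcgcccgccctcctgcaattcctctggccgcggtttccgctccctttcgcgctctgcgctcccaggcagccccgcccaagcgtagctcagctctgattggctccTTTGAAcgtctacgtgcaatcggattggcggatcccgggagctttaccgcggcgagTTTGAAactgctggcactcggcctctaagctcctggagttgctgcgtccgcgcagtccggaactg
Ube2c: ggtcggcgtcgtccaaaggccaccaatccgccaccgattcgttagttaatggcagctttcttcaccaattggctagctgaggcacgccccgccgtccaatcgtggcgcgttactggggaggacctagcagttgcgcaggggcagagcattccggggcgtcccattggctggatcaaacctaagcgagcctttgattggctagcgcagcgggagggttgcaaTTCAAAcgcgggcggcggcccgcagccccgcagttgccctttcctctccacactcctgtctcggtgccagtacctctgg

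Hypoxia-induced HIF targets rose in 11 of 25 cases and fell in 1, with a median of 0.60 against 0.07 in nOIR mice, and the change exceeded that in nOIR mice in 3. Ero1a, an oxidase that forms disulfide bonds in secreted proteins, had 1055 to 2094 normalized reads (median 1352) at OIR p14 and 1954 to 2912 (median 2555) at OIR p17, by 0.85 ± 0.14 (limma, adjusted p = 0.00138). P4ha2, a prolyl hydroxylase of collagen, went from 469 to 713 (median 649) to 755 to 1092 (median 955), by 0.61 ± 0.12 (adjusted p = 0.00526). The p17 mice lay above the p14 mice throughout in P4ha2 and nearly so in Ero1a. Slc16a3, the lactate exporter MCT4, rose by 0.88 ± 0.19 with slight overlap (limma, adjusted p = 0.00899, and 0.0731 without S2, S7 and S8). The differences of Ero1a, P4ha2 and Slc16a3 from nOIR mice did not pass (adjusted p = 0.0682, 0.0734 and 0.585). Ndrg1, a stress-responsive gene, was the 1 that fell, from 12708 to 16282 (median 14486) to 9778 to 11706 (median 10559). Its change of -0.46 ± 0.07 had groups apart (limma, adjusted p = 0.00103) and was matched by -0.43 in nOIR mice. Without S2, S7 and S8, 3 HIF targets were called higher, and in female mice alone none was (limma). The list medians there were 0.47 and 0.54.

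The promoters of Ero1a and P4ha2 are given because HIF binds ACGTG. Of the 25 targets 19 matched a RefSeq promoter (GRCm38.p6). ACGTG, searched on both strands (CACGT on the other), occurred in 15 of the 19, namely in 8 of 9 that rose and 7 of the other 10, and in 21.8% of all genes with a promoter and 27.8% of those tested here. Capitals mark ACGTG or its reverse complement. The Ero1a promoter is chr14:45318523-45318822 on the minus strand and the P4ha2 promoter is chr11:54100674-54100973 on the plus strand. A match describes the letters and not a bound site.
Ero1a: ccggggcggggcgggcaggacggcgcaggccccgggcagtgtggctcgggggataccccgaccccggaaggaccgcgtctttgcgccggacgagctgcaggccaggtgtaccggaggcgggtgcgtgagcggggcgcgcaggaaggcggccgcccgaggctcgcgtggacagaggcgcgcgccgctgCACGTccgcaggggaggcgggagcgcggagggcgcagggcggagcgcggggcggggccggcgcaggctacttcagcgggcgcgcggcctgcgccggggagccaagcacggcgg
P4ha2: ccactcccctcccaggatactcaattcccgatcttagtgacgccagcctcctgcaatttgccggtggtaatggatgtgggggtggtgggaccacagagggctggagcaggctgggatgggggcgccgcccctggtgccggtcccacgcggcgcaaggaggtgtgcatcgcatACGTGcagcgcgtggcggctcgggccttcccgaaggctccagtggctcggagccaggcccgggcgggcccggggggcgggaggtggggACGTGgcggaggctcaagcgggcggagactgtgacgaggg

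Glycolytic genes rose in 7 of 18 cases (median 0.35), and for none was the change called different from that in nOIR mice, where the median was 0.275 (limma). Among the 18, 3 were called higher without S2, S7 and S8. Hk2, the hexokinase of photoreceptors and hypoxic cells, had 885 to 1630 normalized reads (median 1340) at OIR p14 and 2627 to 4305 (median 3142) at OIR p17. The groups were far apart, with a change of 1.35 ± 0.15 (limma, adjusted p = 3.32e-05). In nOIR mice Hk2 changed by 1.17, from a median of 1342 to one of 2879, and the difference was 0.17 ± 0.29 (adjusted p = 0.858). No nuclear gene of oxidative phosphorylation passed among 28 (median -0.08; limma).

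**Figure D5:**
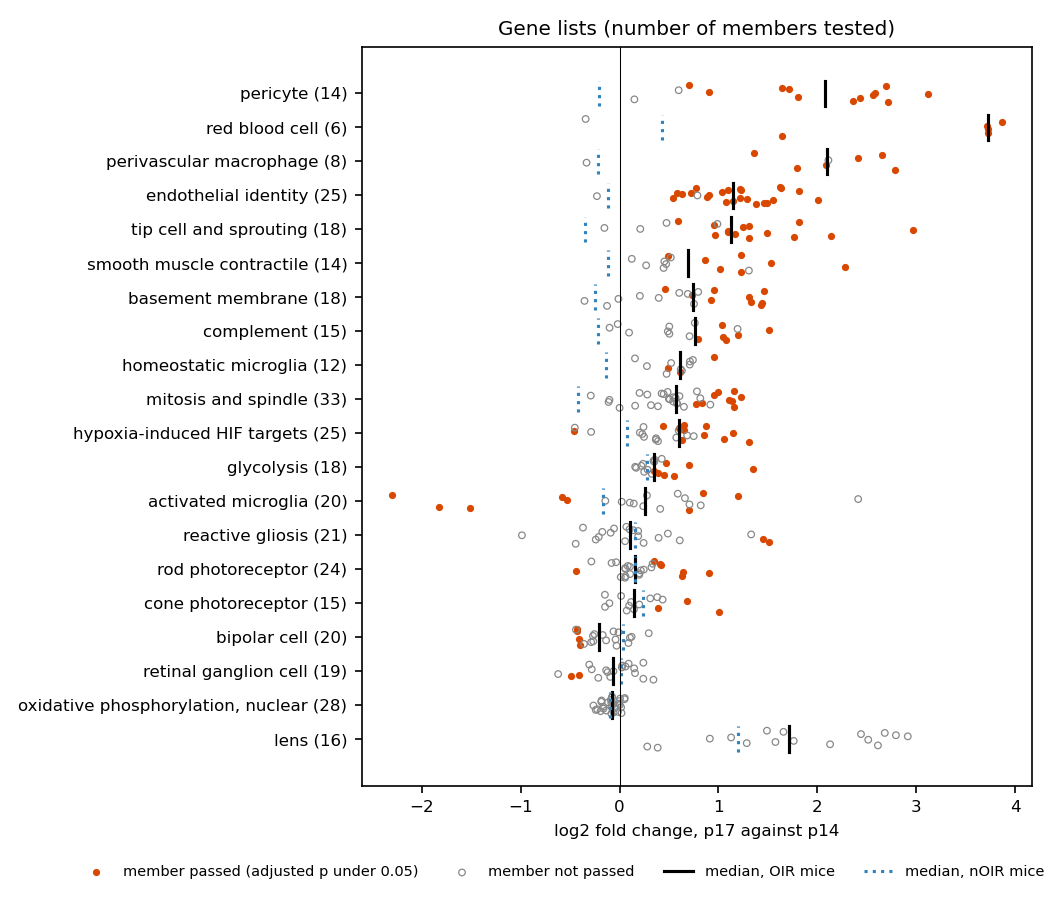
Log2 fold change of each member of 20 gene lists in OIR mice (filled: adjusted p under 0.05), with the list's median in OIR mice (solid) and in nOIR mice (dotted). The pericyte and endothelial medians, 2.08 and 1.15, stand apart from their nOIR medians, while those of glycolysis and rods nearly coincide.

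Genes of macrophages and of inflammation moved in both directions. Perivascular macrophage genes rose in 6 of 8 cases (median 2.10) and complement genes in 6 of 15 (median 0.76). MHC genes rose in 5 of 17 cases (median 0.50) and interferon response genes in 7 of 21 (median 0.40). None was lower in these lists. The macrophage list held 11 genes, and members low at p14 could reach the limit through p17 alone. Ms4a7 did so, with means of 8.65 at OIR p14 and 33.2 at OIR p17. The macrophage count and median therefore lean towards rises. Lyve1, the tested member of this list with the highest mean, was lower at p17, with means of 556 at OIR p14 and 437 at OIR p17. Its change of -0.335 ± 0.14 did not pass (limma, adjusted p = 0.221). Stab1, a scavenger receptor, had 75.1 to 327 normalized reads (median 133) at OIR p14 and 253 to 603 (median 366) at OIR p17, by 1.36 ± 0.27 (limma, adjusted p = 0.00535). The highest p14 mouse reached into the p17 range, and nOIR medians were 133 and 47.3. Pf4, a chemokine of macrophages and platelets, rose by 2.66 ± 0.65 (adjusted p = 0.0204) from few reads, with calls lost without p14 mouse S2 (0.052), p14 mouse S6 (0.0504) or the p17 mice S2, S7 and S8 (0.073), and with Xist (0.0547) or Cryaa (0.0824) as a covariate. By edgeR on the recovered reads Pf4 changed by 1.78 (adjusted p = 0.126). Without these 3 mice 1 macrophage, 2 complement, 2 MHC and 4 interferon genes were called higher, while the list medians were 2.39, 0.77, 0.46 and 0.36 with p17 mice down from 8 to 5. No MHC gene was called different from its change in nOIR mice (limma).

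C1qa, a chain of the complement starter C1q made by microglia, had 208 to 405 normalized reads (median 303) at p14 and 378 to 907 (median 653) at p17, by 1.08 ± 0.18 (limma, adjusted p = 0.0013). C4b, the complement factor C4, rose by 1.51 ± 0.34 (adjusted p = 0.0144, and 0.0698 without S2, S7 and S8). H2-Aa, an MHC class II chain, rose by 2.32 ± 0.47 from a median of 3.33 to one of 24.7 (limma, adjusted p = 0.00568, and 0.0521 without these mice). Bst2 (tetherin) and Ifitm3, both induced by interferon, rose by 1.65 ± 0.23 and 1.69 ± 0.31 (limma, adjusted p = 0.000306 and 0.00247). Tgfb1, a cytokine of wound healing, went from 45.5 to 142 (median 88.4) to 145 to 267 (median 193), by 1.23 ± 0.22 (adjusted p = 0.00225). Groups were apart in Bst2 and Tgfb1. C4b, H2-Aa and Ifitm3 belong to families with close copies, so their reads are uncertain.

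Of 20 chemokines and cytokines 2 rose and 4 fell (median -0.01), while 1 was higher and 1 lower without S2, S7 and S8 and none passed in female mice (limma). Tnf, a cytokine of activated microglia and macrophages, had 17.1 to 59.5 normalized reads (median 31.7) at OIR p14 and 0 to 24 (median 6.09) at OIR p17, and was listed at a median of 0 in nOIR mice. Its log2 fold change was -2.30 ± 0.56 (limma, adjusted p = 0.0209), with the call lost without p14 mouse S3 (0.0592) or S2 (0.0516), in female mice alone (0.131), with a pseudocount of 0.1 (0.0856) or with Cryaa as a covariate (0.0596). Il1a, an alarm cytokine, fell from 25 to 118 (median 69.6) to 8.17 to 37.3 (median 16.8), by -1.84 ± 0.42 (adjusted p = 0.0146). The chemokine Ccl3 fell from 56.9 to 126 (median 70.5) to 14.3 to 52.6 (median 22) with groups apart, by -1.51 ± 0.30, and Ccl4 by -1.82 ± 0.37 (limma, adjusted p = 0.00594 and 0.00601). All 4 transcripts had medians in OIR p17 mice above those in nOIR p17 mice. Without S2, S7 and S8 the adjusted p of Il1a, Ccl3 and Ccl4 was 0.0566, 0.0583 and 0.0547, and that of Tnf 0.0375. Igf1, a growth factor made by microglia and other cells, fell by -0.53 ± 0.10 (limma, adjusted p = 0.00287) with groups apart. None of these 5 changes was called different from that in nOIR mice (limma, adjusted p of the difference from 0.0727 for Tnf to 0.967 for Ccl3). Ccl3 changed by -1.62 in nOIR mice, but there its medians were only 3.04 at p14 and 0 at p17. That value rests on few reads and the pseudocount, and the nOIR medians of Tnf and Ccl4 were 0 at both ages. For these 3 genes the comparison with nOIR mice is therefore weak. In female mice alone the change of Il1a was -1.18 (adjusted p = 0.262).

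The activated microglia list shares genes with the chemokine and cytokine list, among them Ccl3 and Ccl4, so their lower counts overlap. Activated microglia genes were lower in 5 of 20 cases and higher in 3 (median 0.26). Without S2, S7 and S8, 2 were lower and 1 higher, and in female mice alone none was lower and 4 were higher (limma, median 0.55). Homeostatic microglia genes were higher in 3 of 12 and none was lower (median 0.615). Cx3cr1, the fractalkine receptor of microglia, had 316 to 637 normalized reads (median 399) at p14 and 563 to 800 (median 673) at p17. The change of 0.61 ± 0.16 passed (limma, adjusted p = 0.0317) and exceeded that in nOIR mice by 1.31 ± 0.20 (adjusted p = 0.000172). Its call in OIR mice was lost in 8 of the 14 fits that left out 1 mouse, those without S2, S3, S5 or S6 of p14 and without S2, S4, S6 or S7 of p17, with adjusted p up to 0.0853. Without S2, S7 and S8, no homeostatic microglia gene passed (limma), with a list median of 0.57.

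Of 21 genes of reactive gliosis 2 rose and none fell (median 0.10), against 4.63% of all genes tested that rose, and 1 was called higher both without S2, S7 and S8 and in female mice. Gfap, the intermediate filament of reactive Müller cells and astrocytes, had 2132 to 7734 normalized reads (median 6408) at OIR p14 and 2164 to 8794 (median 6808) at OIR p17. The ranges coincided, and the change of 0.19 ± 0.31 did not pass (limma, adjusted p = 0.806). The nOIR medians were 492 and 422. Timp1, an inhibitor of metalloproteinases, and Edn2, the endothelin of stressed photoreceptors, had changes of -0.37 ± 0.52 and 0.39 ± 0.42, neither past the threshold (adjusted p = 0.766 and 0.683). Edn1, an endothelin of endothelium, was 1 of the 2 that rose, from 43.5 to 117 (median 65.5) to 134 to 318 (median 155), by 1.45 ± 0.25 (limma, adjusted p = 0.00194). Its groups were apart. Apoe, the lipid carrier of Müller cells and microglia, rose by 0.70 ± 0.15 with overlap (adjusted p = 0.00935). Etnppl, a phospholyase of glia, differed in its course, since it rose by 2.81 in nOIR mice and changed by -0.27 ± 0.55 in OIR mice (limma, difference -3.09 ± 0.68, adjusted p = 0.00843).

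Photoreceptor genes rose in part. Of 24 rod genes 6 rose and 1 fell (median 0.15, and 0.16 in nOIR mice), and of 15 cone genes 3 rose (median 0.145). For no rod gene and for 1 cone gene was the change called different from that in nOIR mice (limma). Called higher without S2, S7 and S8 were 2 rod genes and 1 cone gene, and in female mice alone 1 rod gene and 0 cone genes (limma). Gnat1, the rod transducin, had 208950 to 308690 normalized reads (median 258250) at OIR p14 and 319570 to 562710 (median 396450) at OIR p17. The groups were apart, and the change was 0.63 ± 0.13 (limma, adjusted p = 0.00665), with nOIR medians of 355520 and 477350. After quantile normalization the change of Gnat1 was 0.29 and did not pass (limma, adjusted p = 0.128). Guca1a, a calcium sensor of the visual cascade, rose by 0.91 ± 0.21 (limma, adjusted p = 0.015, and 0.0909 without S2, S7 and S8) and by 1.24 in nOIR mice. The changes of Gnat1 and Guca1a were not called different from those in nOIR mice (limma, adjusted p = 0.475 and 0.686). Arr3 (cone arrestin) was 1522 to 3072 (median 1817) at p14 and 2813 to 5465 (median 3988) at p17, by 1.00 ± 0.17 (limma, adjusted p = 0.0018), beside nOIR medians of 3602 and 4266. The rise exceeded that in nOIR mice by 0.85 ± 0.22 (adjusted p = 0.0299).

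Bipolar cell genes fell in 4 of 20 cases with none higher (median -0.21, and 0.04 in nOIR mice). Isl1, a transcription factor of bipolar and other inner retinal cells, fell by -0.41 ± 0.10 (limma, adjusted p = 0.0167). Cabp5, a calcium-binding protein, had 2953 to 4071 normalized reads (median 3373) at p14 and 2132 to 3290 (median 2664) at p17. Trpm1, the channel that opens in ON bipolar cells at light onset, had 12482 to 15910 (median 14305) and 7614 to 12569 (median 11166). The groups overlapped in these 3 genes, and the changes of Cabp5 and Trpm1 were -0.40 ± 0.11 and -0.43 ± 0.12 (limma, adjusted p = 0.0365 and 0.0492). Leaving out 1 mouse kept the call of Isl1 in all 14 fits, of Trpm1 in 4 and of Cabp5 in 3, with adjusted p up to 0.119. None of these 3 passed without S2, S7 and S8 (limma, adjusted p from 0.0504 for Isl1 to 0.143 for Trpm1). Of these 3, only Cabp5 fell more than in nOIR mice (difference -0.51 ± 0.14, adjusted p = 0.0445).

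Amacrine genes rose in 2 of 22 cases (4.63% of all genes tested rose), ganglion cell genes fell in 2 of 19 (1.3% of all genes fell), and none of 9 horizontal cell genes and none of 21 synaptic genes passed (limma). Among 16 genes of progenitors and immature neurons, 1 rose and 2 fell (median -0.29). Leaving out S2, S7 and S8, 1 amacrine gene was higher, 1 gene of the progenitor list was lower and no ganglion cell gene passed, and in female mice these counts were 2, 1 and 0 (limma). Dcx (doublecortin, a microtubule protein of immature neurons) was 360 to 567 normalized reads (median 515) at OIR p14 and 154 to 342 (median 204) at OIR p17. Its groups were apart, with a change of -1.11 ± 0.17 (limma, adjusted p = 0.00084), and the medians in nOIR mice were 426 and 302. The difference between the changes did not pass (adjusted p = 0.0797).

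Arhgap36, a modifier of hedgehog signalling, had 109 to 155 normalized reads (median 140) at OIR p14 and 16.3 to 77.8 (median 35.8) at OIR p17, by -1.89 ± 0.31 (limma, adjusted p = 0.00121). Trib1, a pseudokinase that directs protein degradation, went from 3298 to 5424 (median 4212) to 1780 to 2377 (median 2230), by -0.95 ± 0.12 (adjusted p = 0.000183). Both had groups apart. Mstn (myostatin), Tmem26, a membrane protein, and Gstm7, a glutathione transferase, fell by -1.15 ± 0.16, -1.12 ± 0.18 and -0.98 ± 0.14, and Pspc1, a paraspeckle protein, by -0.59 ± 0.09 (limma, adjusted p from 0.000275 to 0.00103). Among further genes with groups apart were Gm12802 (-1.64 ± 0.25), 9630028B13Rik (-1.39 ± 0.24), Mesp1 (-1.37 ± 0.31), Rilp (-1.27 ± 0.20), Gm37896 (-1.19 ± 0.25) and Riiad1 (-1.07 ± 0.23). For none of these 12 genes was the fall called different from that in nOIR mice, where Gm12802 changed by -1.77.

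For a few genes the change in OIR mice lay below that in nOIR mice. Cirbp, a cold-inducible RNA-binding protein, had 15066 to 24129 normalized reads (median 17894) at OIR p14 and 6527 to 13853 (median 9370) at OIR p17. The groups were apart, and the change was -0.94 ± 0.17 (limma, adjusted p = 0.00209). In nOIR mice its medians were 10091 and 11654, so that the OIR p14 mice were the highest of the 4 groups, and the difference between the changes was -1.10 ± 0.21 (adjusted p = 0.00227). Dcdc2a, a doublecortin-domain protein, fell from 481 to 619 (median 577) to 212 to 390 (median 292), by -0.97 ± 0.13 (limma, adjusted p = 0.000208). BC051142 fell by -1.63 ± 0.23, Gem, a small GTPase, by -0.48 ± 0.10, and the transcripts Gm44240 and Gm12371 by -1.75 ± 0.37 and -0.93 ± 0.24. The differences from nOIR mice for these 5 genes ranged from -2.84 for Gm44240 to -0.63 for Gem, all past the threshold. Gm12371 alone had overlapping groups and lost its call in OIR mice without 1 of p14 mice S1, S2 or S4 or p17 mice S2 or S3 (adjusted p up to 0.0742). Gsg1l2 did not change in OIR mice by the test (-0.17 ± 0.11, adjusted p = 0.462) but its change lay -0.66 ± 0.14 from that in nOIR mice, where it rose (limma, adjusted p = 0.00497).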

How the data were processed

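Whole retinas of single mice were sequenced. According to the study's methods, cDNA was made with a low-input SMARTer kit, which does not mark strand. The authors mapped reads with RNA STAR 2.7.8a, counted them on GENCODE genes with featureCounts 2.0.1 and deposited normalized reads, a signal made by dividing the counts by DESeq2 1.34 size factors. PCR duplicates were not stated to be removed. The authors' log2 fold and p-value columns were not used. Whole reads were recovered from every column within 0.001, and their totals are the depths given.

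Normalized reads plus a pseudocount of 1 were log2-transformed, and genes with a mean of 10 or more over the OIR mice were tested with limma 3.58.1 (R 4.3.3, eBayes with a trend, Benjamini-Hochberg over all 19121 genes) in OIR mice alone. Changes in OIR and nOIR mice were compared in 1 fit of 26 mice, without nOIR p14 S4. Changed means an adjusted p under 0.05. Counts of every pair of mice within an OIR group differed by more than counting error (chi-square divided by its degrees of freedom, 13.6 to 139). The fits were tested on simulated data. Alternatives covered pseudocount, filters, scaling, edgeR 4.0.16, DESeq2 1.42.0, covariates, a replicate block, and leaving out mice. Named genes were those with the largest or firmest changes, in the lists and between OIR and nOIR mice, with groups apart where the rule asks for it. Pdgfrb, Cspg4, Notch3, Anpep, Pecam1, Cdh5, Dll4, Pgf, Alas2, Mki67, Slc16a3, Tnf, Il1a, Timp1, Edn2 and Etnppl fall outside this rule and were chosen after their values were seen. Members and lists were chosen with earlier results of these data known. Promoters came from RefSeq (GRCm38.p6). Some genes of the lists are counted but not reported singly here.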

Additional observations from a re-analysis of the deposited data

Results flagged for a closer look

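For 7 genes 1 mouse stood apart from its group by the gap to the next mouse. At p14 these were S3 for Esm1 (18.2 normalized reads, the lowest), S1 for Bst2 (108, the highest), and S4 for BC051142 (192, the lowest) and Dcdc2a (481, the lowest). At p17 they were S4 for Dll4 (210.0, the lowest) and Col4a1 (7590, the lowest), and S1 for Gfap (2160, the lowest). Of 216 gene and group pairs examined, chance alone marks about 1 in 20.

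The change from p14 to p17 differed between OIR and nOIR mice by the test of the difference (limma, adjusted p under 0.05) for the genes given here, each as the OIR change minus the nOIR change on the log2 scale. Among pericyte and smooth muscle genes the difference was 2.94 for Rgs5, 2.84 for Abcc9, 2.7 for Kcnj8, 3.48 for Higd1b, 3.13 for Cd248, 3.15 for Ednra, 1.64 for Pdgfrb, 2.11 for Cspg4, 1.89 for Notch3, 2.39 for Des, 1.68 for Acta2 and 1.87 for Myl9. Among endothelial, tip cell and VEGF pathway genes it was 1.72 for Cldn5, 0.87 for Pecam1, 1.68 for Cdh5, 2.07 for Tie1, 2.06 for Emcn, 1.70 for Cd34, 1.16 for Esam, 2.91 for Esm1, 2.85 for Apln, 2.01 for Angpt2, 1.17 for Dll4, 2.49 for Adm, 0.83 for Vegfa and 1.29 for Edn1. Among matrix genes and genes outside the lists it was 2.40 for Col3a1, 1.79 for Col4a1, 1.83 for Nid1, 3.06 for Bgn, 2.02 for Serpinh1, 1.59 for Loxl3, 0.98 for Mmp14, 3.33 for Aspn, 2.86 for Slc38a11, 2.23 for Ggt5, 2.08 for Rasl12 and 1.72 for Mxra8. Among red blood cell and cell cycle genes it was 3.34 for Hbb-bs, 3.39 for Hbb-bt, 1.85 for Alas2, 2.11 for Cdk1, 2.35 for Ube2c, 3.04 for Top2a and 3.69 for Cdc6. In nOIR mice Cdk1, Ube2c, Top2a and Cdc6 changed by -1.28, -1.20, -2.04 and -2.19, and these changes enter the differences. Their nOIR medians were low, at most 29.7 at p14 and 14.1 at p17. The OIR changes of Top2a and Cdc6 did not pass in this same fit. Among immune, glial, photoreceptor and stress genes it was 2.82 for Stab1, 4.12 for Pf4, 1.31 for Cx3cr1, 1.31 for C1qa, 1.57 for Ifitm3, 1.59 for Tgfb1, 0.72 for Apoe, 0.85 for Arr3, 0.87 for Trib3, 0.56 for Slc7a5 and 1.07 for Slc40a1. Pf4 changed by -1.46 in nOIR mice, from a median of 5.47 to one of 0.995, so its difference rests in part on few reads. It lay below 0 for several genes, with -0.51 for Cabp5, -3.09 for Etnppl, -1.42 for BC051142, -0.92 for Dcdc2a, -1.10 for Cirbp, -2.84 for Gm44240, -0.63 for Gem, -1.49 for Gm12371 and -0.66 for Gsg1l2.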

How the results depend on the processing

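The 101 named genes past the threshold kept their direction under the alternatives run (the filter at a mean of 100 held 91 of the 108 named genes tested). Their calls were kept in 93 in every fit without 1 mouse, in 80 without the 3 mice highest in Cryaa and in 60 in female mice alone. Counts are given as higher and lower. Leaving out 1 mouse at a time gave 674 to 919 higher and 128 to 259 lower genes, 72 to 105 above a log2 of 2 and 4 to 11 below -2, 347 to 505 above and 28 to 66 below the nOIR change, 21 to 23 endothelial, 12 to 13 pericyte, 5 to 10 mitosis and 7 to 12 HIF genes higher, and 4 to 5 activated microglia and 1 to 4 bipolar genes lower. The lowest total counts came without p14 mouse S6.

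With a replicate block (the number in the title) there were 303 higher and 39 lower genes (88.6% higher), 3 below a log2 of -2, 271 above and 17 below the nOIR change, 2 mitosis and 2 HIF genes higher, and 1 microglia and 0 bipolar genes lower. The numbers do not pair the mice, since same-numbered mice correlated at -0.0641 to -0.221 and no mouse correlated best with its own number. Without the 3 mice highest in Cryaa, an alternative chosen after seeing the data, 400 were higher and 85 lower, 4 below -2, with 4 mitosis and 3 HIF genes higher and 2 microglia and 1 bipolar genes lower. In female mice alone, also added after seeing the data, 337 were higher and 42 lower (88.9% higher), with 2 mitosis and 0 HIF genes higher and 0 microglia and 0 bipolar genes lower. With log2 Cryaa as a covariate the counts were 513 and 109, 3 below -2, 6 HIF genes higher, and 3 microglia and 1 bipolar genes lower. With log2 Xist as a covariate, 5 mitosis and 6 HIF genes were higher. At an adjusted p under 0.01 there were 410 and 59, 1 below -2, 227 above and 9 below the nOIR change, 4 mitosis and 5 HIF genes higher, and 3 microglia and 0 bipolar genes lower.

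With all 4 groups in the fit 529 genes were lower, 4 mitosis genes higher and 7 bipolar genes lower. DESeq2 gave 417 lower genes, 85 below the nOIR change and 7 bipolar genes lower. edgeR on the recovered reads gave 830 higher and 241 lower. A mean of 100 or more left 26 genes above 2, 0 below -2, 5 mitosis genes higher and 2 microglia genes lower. A pseudocount of 0.1 gave 4 below -2, a mean of 1 or more 30, and no filter 26 with 2 bipolar genes lower. Quantile normalization gave 2 bipolar genes lower. The cause of these shifts was not tested. Genes near the limit of 10 reads carry few reads, so their fold changes are the least certain.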

Other observations

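Genes of the unfolded protein and amino acid responses rose in 5 of 18 cases with none lower (median log2 fold change 0.38, and -0.004 in nOIR mice), against 4.63% of all genes tested. Trib3, a pseudokinase induced by ATF4, had 161 to 252 normalized reads (median 212) at OIR p14 and 273 to 571 (median 435) at OIR p17, a change of 1.07 ± 0.17 (limma, adjusted p = 0.000746). Slc7a5, the transporter of large neutral amino acids, had 2395 to 3199 (median 2768) at p14 and 3218 to 4403 (median 4046) at p17, a change of 0.48 ± 0.10 (adjusted p = 0.00535). In both genes every p17 mouse lay above every p14 mouse. Without the p17 mice S2, S7 and S8, 2 genes of this list were called higher.

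Genes of heme, iron and NRF2 biology rose in 4 of 15 cases (median 0.01), and none passed without S2, S7 and S8 (limma). Slc40a1 (ferroportin, the iron exporter) went from 340 to 579 normalized reads (median 445) to 468 to 831 (median 695), by 0.63 ± 0.15 with overlap (limma, adjusted p = 0.0171, and 0.123 without S2, S7 and S8). Immediate early genes rose in 5 of 20 cases (median 0.49), of which none passed without these 3 mice (limma, median 0.43). Müller cell genes rose in 1 and fell in 3 of 18 cases (median 0.06), and no gene passed among 10 astrocyte, 14 pigment epithelium and 8 mitochondrially encoded genes (limma).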
